A study of Mus musculus with 8 samples.

Results

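The TIR-domain adaptors *Myd88*, *Tirap*, *Ticam1* and *Ticam2* were followed in mouse spleen after sustained stimulation of TLR7. They were taken by name from a quantitative PCR plate for Toll-like receptor (TLR) signalling, and are 4 of its 84 pathway genes. The plate also holds 5 housekeeping genes. Mice received R848 (resiquimod), a small-molecule ligand of TLR7, at 1 mg per kg body weight each day for 7 days, or PBS (Mock) over the same time. There were C57BL/6 wild-type mice and mice labelled TLR7-/- or IFNAR-/-, the latter lacking the receptor for type I interferon. Whole spleen was used, and each of the 8 samples was RNA pooled from 3 animals. The 6 groups are the 3 strains under each treatment. Wild type was sampled in 2 experiments per treatment, of which the table gives only the mean. Each treatment had 1 sample from each deficient strain. Age, sex and the genetic background of the deficient strains are not given in the sources used here, and the plate carries no gene that defines spleen tissue.

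Toll-like receptors pass their signal on through a shared intracellular domain, the TIR domain, which recruits adaptor proteins carrying the same domain. MyD88 couples nearly all of these receptors, TLR7 included, and the interleukin-1 receptor to IRAK kinases and TRAF6. TIRAP (also called Mal) is a sorting adaptor that brings MyD88 to receptors at the membrane, best known for TLR2 and TLR4. TRIF, encoded by *Ticam1*, serves TLR3 directly and TLR4 through the bridging adaptor TRAM, encoded by *Ticam2*, and leads to TBK1, IRF3 and interferon beta. *Myd88* and *Tirap* are called the MyD88 arm below and *Ticam1* and *Ticam2* the TRIF arm.

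The promoters of the adaptors are shown here so that the letters around each start can be compared. The windows come from RefSeq (GRCm38.p6), run from 250 bases before to 50 bases after an annotated start, and are on the minus strand. *Myd88*, *Tirap* and *Ticam1* had entries. *Tirap* had a pair of overlapping windows, of which the upstream one is printed. Capitals mark GAAA, any 2 bases, GAAA, a pair of half-sites of the interferon-stimulated response element.
Myd88, chr9:119339969-119340268: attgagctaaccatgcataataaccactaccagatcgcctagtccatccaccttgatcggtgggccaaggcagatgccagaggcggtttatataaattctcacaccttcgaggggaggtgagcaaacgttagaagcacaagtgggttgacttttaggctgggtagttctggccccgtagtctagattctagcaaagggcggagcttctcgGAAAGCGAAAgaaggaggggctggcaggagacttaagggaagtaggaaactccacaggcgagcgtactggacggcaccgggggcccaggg
Tirap, chr9:35199916-35200215: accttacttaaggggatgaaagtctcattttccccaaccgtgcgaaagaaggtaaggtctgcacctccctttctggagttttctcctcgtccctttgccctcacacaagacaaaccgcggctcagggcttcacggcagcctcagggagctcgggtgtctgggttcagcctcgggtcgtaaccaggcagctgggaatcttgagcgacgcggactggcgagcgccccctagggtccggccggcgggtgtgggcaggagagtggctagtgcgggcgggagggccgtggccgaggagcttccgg
Ticam1, chr17:56276718-56277017: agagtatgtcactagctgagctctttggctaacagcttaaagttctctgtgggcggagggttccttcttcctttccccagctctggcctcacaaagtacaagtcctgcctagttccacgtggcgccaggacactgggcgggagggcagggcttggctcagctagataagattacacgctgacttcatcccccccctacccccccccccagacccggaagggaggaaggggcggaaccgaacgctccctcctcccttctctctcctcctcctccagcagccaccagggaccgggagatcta

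Of these windows only that of *Myd88* held this pair on either strand, 40 to 31 bases before its start. Among all 32851 promoter windows of that length, 1131 (3.44%) held it. The same *Myd88* window held TTCNNNGAA, the palindrome of the interferon-gamma activated site, 46 to 38 bases before the start, overlapping the first match by its last bases. That motif was in 8.30% of all windows. An NF-kB-like motif, GGGA and CC with any 4 bases between them, was in 20.7% of all windows and in none of the 3 printed ones. The downstream *Tirap* window, chr9:35199856-35200155, held it on the other strand, 4 to 13 bases into the gene. GC content was 54.0% in the *Myd88* window, 63.0% in the printed *Tirap* window and 60.0% in the *Ticam1* window. A match describes the letters of a window and was not tested as a binding site.

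Transcript levels are given as delta-Ct values, in cycles. A delta-Ct is the PCR cycle at which a gene crossed the threshold minus the mean for *Hprt1*, *Hsp90ab1* and *Gapdh*. A lower delta-Ct is a higher level, and 1 cycle is a 2-fold difference. The log2 difference of a gene is the Mock delta-Ct less the R848 delta-Ct, so a value above 0 is a higher level with R848. Each column holds 1 value per gene, so no value has an error, no difference was tested, and the words higher and lower refer to these pools alone.

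*Tlr7*, the gene that the TLR7-/- label names, had delta-Ct values of 12 and 9.47 (Mock, R848) in wild type, 9.20 and 9.33 in TLR7-/-, and 10.43 and 8.23 in IFNAR-/-. Among the Mock columns it was thus highest in the one labelled as lacking it. Where its PCR product lies relative to the deleted part is not given, so the reading does not check the label. No gene of the interferon receptor is on the plate. TLR7-/- and IFNAR-/- therefore stand throughout for the libraries labelled so, and every direction drawn from them rests on those labels.

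In wild type, the delta-Ct of *Myd88* was 10.65 with Mock treatment and 8.17 with R848. In the TLR7-/- samples it stood at 7.60 in Mock and 7.43 in R848, and in the IFNAR-/- samples at 10.63 and 7.43. The Mock columns of wild type and IFNAR-/- were thus the low ones, within 0.02 cycles of each other, and the other 4 columns lay within 0.74 cycles. The log2 difference with R848 was 2.48 in wild type (5.58-fold), 0.17 in TLR7-/- (1.13-fold) and 3.20 in IFNAR-/- (9.19-fold). Larger differences were read for 9 of the 84 pathway genes in wild type, for 34 in TLR7-/- and for 11 in IFNAR-/-.

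*Tirap*, the sorting adaptor, had delta-Ct values of 9.50 and 7.12 in Mock and R848 of wild type. It had 7.60 and 6.93 in the TLR7-/- pair, and 10.23 and 6.93 in the IFNAR-/- pair. All 3 R848 columns lay within 0.19 cycles, the narrowest range among the 4 adaptors, and every Mock column was lower in transcript than every R848 column. The log2 difference was 2.38 in wild type (5.21-fold), 0.67 in TLR7-/- and 3.30 in IFNAR-/- (9.85-fold). The TLR7-/- value was the largest of the 4 adaptors in that pair, with 8 plate genes above it.

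*Ticam1*, encoding TRIF, stood at a delta-Ct of 8.60 with Mock treatment and 6.32 with R848 in wild type. In TLR7-/- they were 7.10 and 6.93, and in IFNAR-/- 10.83 and 7.13. Wild-type R848 was the highest level of this gene and IFNAR-/- Mock its lowest. The log2 difference was 2.28 in wild type (4.86-fold), 0.17 in TLR7-/- (1.13-fold) and 3.70 in IFNAR-/- (13.0-fold), with 7 plate genes above it in the last.

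*Ticam2*, encoding the bridge TRAM, had delta-Ct values of 7.75 and 6.42 in Mock and R848 of wild type. In TLR7-/- they were 6.90 and 6.63, and in IFNAR-/- 9.53 and 6.43. It was the adaptor with the smallest difference in wild type, at 1.33 (2.51-fold), where 24 plate genes lay above it. In TLR7-/- the value was 0.27 (1.21-fold) and in IFNAR-/- 3.10 (8.57-fold). Its R848 columns lay within 0.21 cycles.

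**Figure D1:**
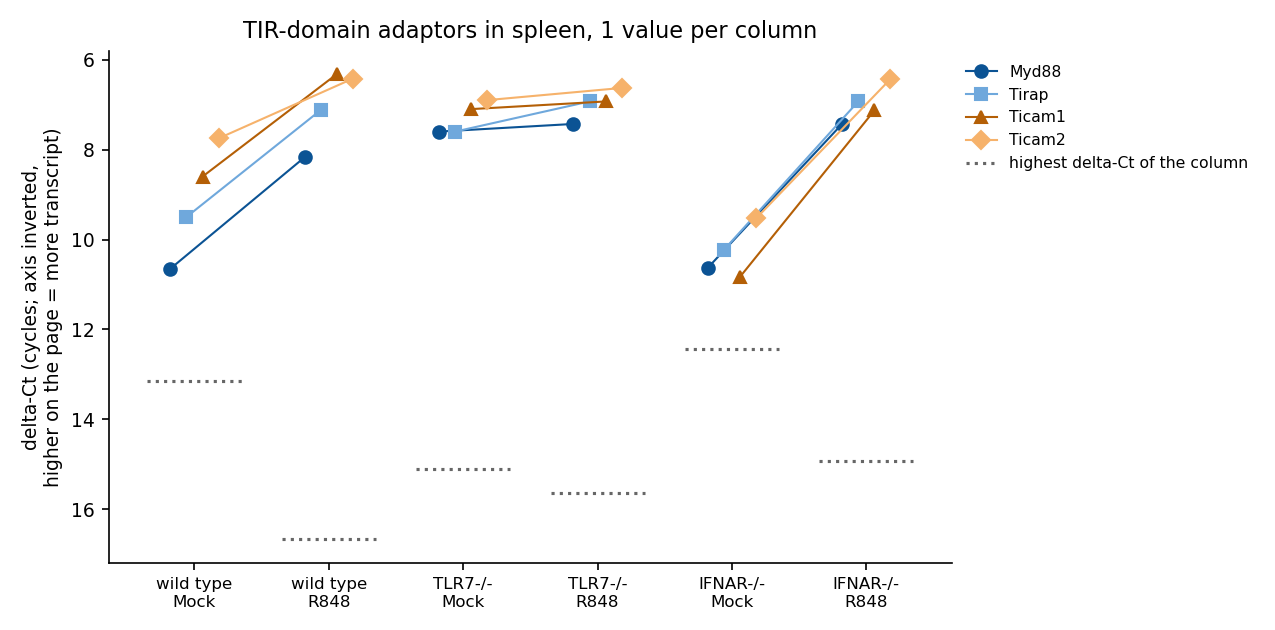
Delta-Ct of the 4 adaptors (cycles, axis inverted so that more transcript is higher) in each column, 1 value per point, with lines joining Mock to R848 of a strain and dotted lines at the highest delta-Ct a column holds. For each adaptor, the Mock points of wild type and IFNAR-/- lie lowest, and those of IFNAR-/- Mock come within 1.60 to 2.90 cycles of the dotted line.

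Counted at 2-fold, 4 of 4 adaptors were higher with R848 in wild type, against 38.1% of the 84 pathway genes. In TLR7-/- the count was 0 of 4, against 4.76% of the plate. In IFNAR-/- it was 4 of 4, against 53.6% of the plate. None of the adaptors was 2-fold lower in any strain. Their median log2 difference was 2.33 in wild type, where that of the 84 pathway genes was 0.41. It was 0.22 in TLR7-/- beside 0.07, and 3.25 in IFNAR-/- beside 1.25.

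**Figure D2:**
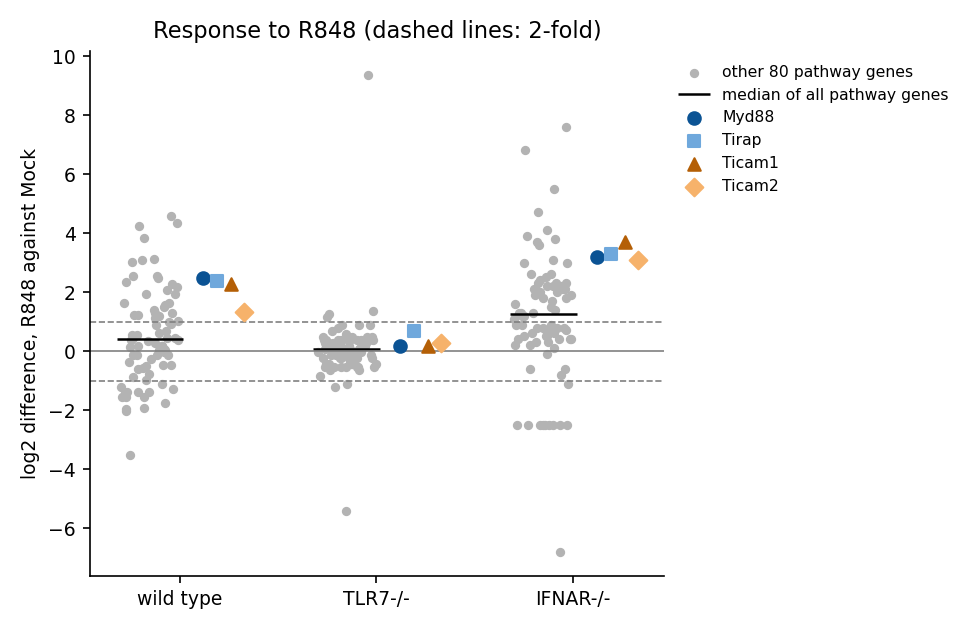
Log2 difference between R848 and Mock (y axis) for each strain (x axis), with grey points for the other pathway genes, genes at the detection limit included, a black line for the median of all 84 and coloured points for the adaptors. The adaptors lie between 1.33 and 2.48 in wild type, between 0.17 and 0.67 in TLR7-/- and between 3.10 and 3.70 in IFNAR-/-.

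The Mock and R848 columns differed in the Ct of their reference genes, by at least 3.52 cycles in wild type, 0.53 in TLR7-/- and 2.50 in IFNAR-/-. Readings above 35 cycles were set to 35, which gives each column a highest delta-Ct and, from it, the mean Ct of its reference genes. For wild type that mean was 21.85 with Mock treatment and no more than 18.33 with R848. It was 19.90 and 19.37 in TLR7-/-, and 22.57 and 20.07 in IFNAR-/-. The adaptors' own Ct values followed. They ran from 32.10 to 33.40 in IFNAR-/- Mock and from 29.60 to 32.50 in wild-type Mock, but from 26.80 to 27.50 in TLR7-/- Mock. In R848 they ran from 26 to 27.50 in the deficient strains and were at most 26.50 in wild type. No adaptor stood at the limit of 35, though a wild-type mean could hide 1 experiment at that limit. The part that late readings play in the differences was not tested.

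Levels across strains differed mainly between the Mock columns. The 3 Mock columns of *Myd88* spanned 3.05 cycles, those of *Tirap* and *Ticam2* 2.63 cycles each and those of *Ticam1* 3.73 cycles. All 4 thus spanned at least 1 cycle. Among plate genes below the detection limit in those columns, 81.2% spanned at least 1 cycle and the median span was 1.73 cycles. The 3 R848 columns spanned 0.74 cycles for *Myd88*, 0.19 for *Tirap*, 0.81 for *Ticam1* and 0.21 for *Ticam2*. None of the adaptors reached 1 cycle there, whereas 56.8% of plate genes below the limit did, with a median of 1.19 cycles.

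**Figure D3:**
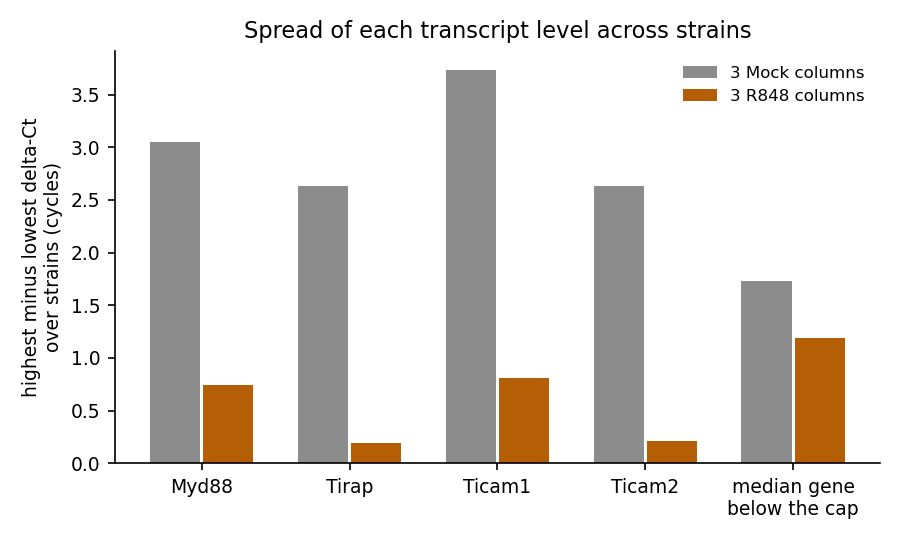
Highest minus lowest delta-Ct (cycles, y axis from 0) over the 3 strains, in the Mock columns (grey bars) and the R848 columns (orange bars), for each adaptor and as the median of plate genes below the detection limit. The Mock bars of the adaptors stand at 2.63 to 3.73 cycles and the R848 bars at 0.19 to 0.81 cycles.

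TLR7-/- Mock was the Mock column with the highest level of each adaptor. On the log2 scale it exceeded wild-type Mock by 3.05 for *Myd88*, 1.90 for *Tirap*, 1.5 for *Ticam1* and 0.85 for *Ticam2*. It exceeded IFNAR-/- Mock by 3.03 for *Myd88*, 3.73 for *Ticam1* and 2.63 for each of *Tirap* and *Ticam2*. The log2 level in IFNAR-/- Mock less that in wild-type Mock was 0.02 for *Myd88*, -0.73 for *Tirap*, -2.23 for *Ticam1* and -1.78 for *Ticam2*. The TRIF arm was therefore the arm in which those latter 2 Mock columns were furthest apart.

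With TLR7-/- Mock as the control in place of each strain's own Mock, no adaptor was 2-fold higher in either strain. In wild type, where 17.9% of the plate was then 2-fold higher, the log2 differences became -0.57 for *Myd88*, 0.48 for *Tirap*, 0.78 for *Ticam1* and 0.48 for *Ticam2*. In IFNAR-/-, where 7.14% of the plate was, they became 0.17, 0.67, -0.03 and 0.47 in the same order. The wild-type and IFNAR-/- counts therefore rest on their own Mock columns.

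Other references moved all 4 adaptors of a column by the same amount. *Gusb* and *Actb*, the housekeeping genes not used as references, had log2 differences of 1.88 and 0.63 in wild type, 0.47 and 0.07 in TLR7-/-, and 1.5 and 1.60 in IFNAR-/-. Against all 5 housekeeping genes, *Ticam2* in wild type had a log2 difference of 0.83. There 3 of 4 adaptors were 2-fold higher, beside 22 of the 84 pathway genes. Each column was also centred on its own median delta-Ct over the 84 pathway genes, genes at the detection limit included. This centring on the median pathway gene shifted wild type by -1.23, TLR7-/- by -0.22 and IFNAR-/- by -2.05. In size these shifts exceed the median log2 differences of 0.41, 0.07 and 1.25, since a difference of column medians is not a median of differences. After centring, *Ticam2* in wild type had 0.10. The other adaptors then stood at 1.05 to 1.25 in wild type, and all 4 were at 1.05 to 1.65 in IFNAR-/-. The plate split into 32 genes 2-fold higher and 15 lower in wild type, cap-limited genes included, and into 15 and 38 after centring. In IFNAR-/- the split moved from 45 and 11 to 14 and 39, and in TLR7-/- from 4 and 3 to 3 and 4.

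**Figure D4:**
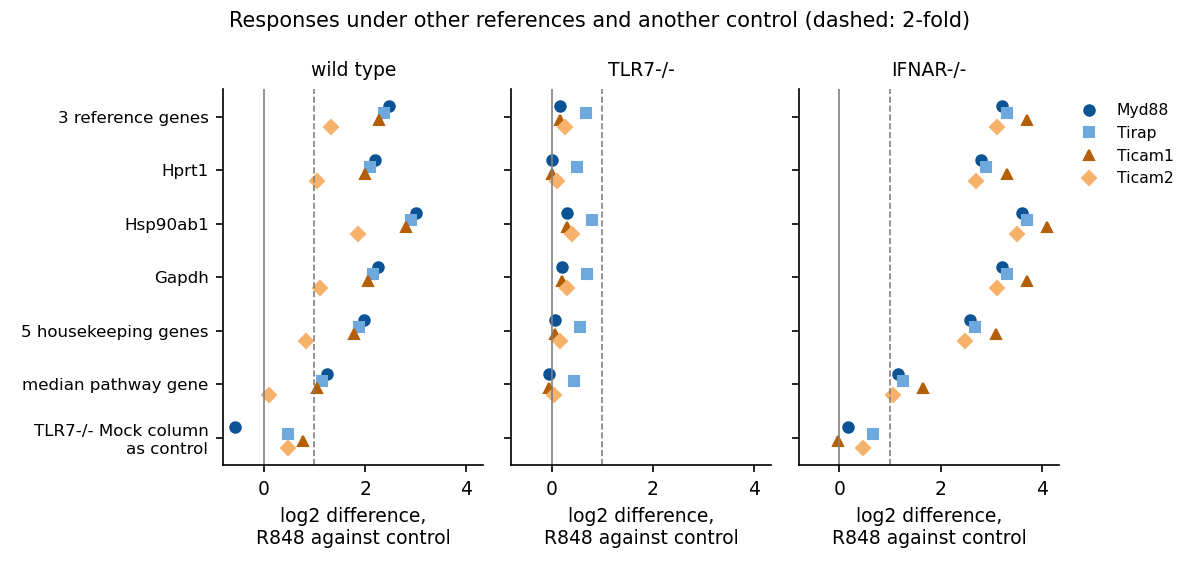
Log2 difference of each adaptor (x axis) under each reference and with TLR7-/- Mock as control (y axis), in 3 panels for the strains, 1 value per point, with a dashed line at 2-fold. In IFNAR-/- the points stay right of the dashed line under each of the references, and with the other control they lie between -0.03 and 0.67.

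The arms were compared by the mean log2 difference of *Myd88* and *Tirap* minus that of *Ticam1* and *Ticam2*, a quantity in which the reference genes cancel. It was 0.62 in wild type, 0.20 in TLR7-/- and -0.15 in IFNAR-/-. The wild-type value rested on *Ticam2*: without it the difference from *Ticam1* alone was 0.15, and without *Ticam1* it was 1.10. In TLR7-/- the value was -0.05 without *Tirap*, and in IFNAR-/- it was 0.15 without *Ticam1*. With TLR7-/- Mock as control the wild-type value turned to -0.68 and the IFNAR-/- value to 0.20. No direction between the arms therefore held across members and controls.

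Gaps between assays within a column are also free of the reference genes. The delta-Ct of *Myd88* lay above that of *Ticam1* by 2.05 cycles (Mock) and 1.85 cycles (R848) in wild type. That gap was 0.50 in both TLR7-/- columns, and -0.20 and 0.30 in Mock and R848 of IFNAR-/-. It was larger in both wild-type columns than in any column of the deficient strains. The gap between *Ticam1* and *Ticam2* behaved otherwise in wild type, at 0.85 in Mock and -0.10 in R848. It was 0.20 and 0.30 in TLR7-/- and 1.30 and 0.70 in IFNAR-/-. *Myd88* and *Tirap* differed by 1.15 and 1.05 in wild type, by 0.00 and 0.50 in TLR7-/- and by 0.40 and 0.50 in IFNAR-/-. Primer efficiencies are not given, so a gap between assays is not a ratio of transcript numbers.

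Strains were next compared by the size of the response, with no test, since each rests on 1 value per column. The wild-type response exceeded that of TLR7-/- by 2.31 for *Myd88*, 1.71 for *Tirap*, 2.11 for *Ticam1* and 1.06 for *Ticam2*, on the log2 scale. All 4 passed 1 log2 unit, against 34.7% of plate genes below the detection limit in those columns. After centring on the median pathway gene, 2 of 4 did, *Myd88* and *Ticam1*. IFNAR-/- exceeded TLR7-/- by 3.03, 2.63, 3.53 and 2.83 in the same order, again 4 of 4, against 62.3%, and 3 of 4 after centring. These 2 contrasts share the TLR7-/- samples. IFNAR-/- exceeded wild type by 0.72 for *Myd88*, 0.92 for *Tirap*, 1.42 for *Ticam1* and 1.77 for *Ticam2*. *Ticam1* and *Ticam2*, 2 of 4 adaptors, passed 1 log2 unit there. That count is near the share of plate genes below the detection limit that passed, 44.9%. At 1.5-fold the count was 4 and at 3-fold 1, and after centring on the median pathway gene none passed. No share of the plate is given here for the counts after centring or at other thresholds.

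Receptors that use these adaptors were read on the same plate. The plate carries 8 receptors that signal through MyD88 and not TRIF, among them *Tlr5*, whose direction was not known in any strain because of the detection limit. Of the other 7, 4 were 2-fold higher with R848 in wild type (median log2 difference 1.03), 1 in TLR7-/- (0.37) and 7 in IFNAR-/- (2.40). The shares of all 84 pathway genes were 38.1%, 4.76% and 53.6%. *Tlr7*, the receptor of R848, had log2 differences of 2.53, -0.13 and 2.20 in wild type, TLR7-/- and IFNAR-/-. *Tlr9*, another endosomal receptor of the MyD88 arm, had 1.03, 0.37 and 3.00. *Tlr2*, a surface receptor that uses *Tirap*, had 0.43, 0.47 and 2.00.

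The receptors that use TRIF are *Tlr3*, for double-stranded RNA, and *Tlr4*, for lipopolysaccharide. *Tlr3* had log2 differences of 2.53 in wild type and 0.07 in TLR7-/-, and of at least 1.60 in IFNAR-/-, where Mock stood at the limit. *Tlr4* had 4.58, -0.43 and 2.10 in the same strains. Both were thus 2-fold higher in wild type and IFNAR-/-, as their adaptor *Ticam1* was, and neither was in TLR7-/-. Of all 84 pathway genes, 38.1% were 2-fold higher in wild type, 4.76% in TLR7-/- and 53.6% in IFNAR-/-. A link between these receptors and *Ticam1* was not tested.

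Signalling genes downstream of the adaptors were counted in the same way. Of 8 genes of MyD88-arm signalling, *Irak1* had no known direction in any strain. Of the other 7, 3 were 2-fold higher in wild type (median log2 difference 0.98), none in TLR7-/- (0.37) and 5 in IFNAR-/- (1.5), and none was 2-fold lower. Over the plate, 38.1%, 4.76% and 53.6% of genes were 2-fold higher in these strains, and the median of genes of known direction was 0.43, 0.07 and 1.5, so the IFNAR-/- median of this list equals that of the plate. Those shares are of all 84 pathway genes. Among plate genes of known direction, 32 of 79, 4 of 79 and 45 of 75 were 2-fold higher in the same order. *Traf6*, the ubiquitin ligase that MyD88 and the IRAK kinases engage, had log2 differences of 3.03, 0.37 and 1.80 in wild type, TLR7-/- and IFNAR-/-. *Irak2*, a kinase recruited by MyD88, had 0.03, 0.37 and 2.30, and *Tollip*, an inhibitor of IRAK signalling, had 3.08, 0.87 and 2.60.

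Of 6 genes of TRIF-arm signalling, *Ifnb1*, encoding interferon beta, had no known direction in any strain, and *Casp8*, encoding a protease of the death-receptor pathway, had none in IFNAR-/-. Among those of known direction, 1 of 5 was 2-fold higher and 1 lower in wild type (median log2 difference 0.03). In TLR7-/- 0 of 5 were higher and 1 was lower (-0.13), and in IFNAR-/- 0 of 4 were higher and 1 was lower (-0.35). The plate shares 2-fold higher were again 38.1%, 4.76% and 53.6% in wild type, TLR7-/- and IFNAR-/-. Among plate genes of known direction, 11 of 79, 3 of 79 and 2 of 75 were 2-fold lower in the same order. *Tbk1*, the kinase activated through TRIF, had log2 differences of 0.03, -0.13 and 0.80 in wild type, TLR7-/- and IFNAR-/-. *Irf3*, the transcription factor it phosphorylates, had -0.87, -0.13 and -0.10. *Ticam1* and *Ticam2* were thus 2-fold higher in 2 strains where *Tbk1* and *Irf3* were within 2-fold. The lists of the arms were not tested against each other.

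The interferon-inducible genes on the plate were 2-fold higher in 2 of 3 cases in wild type, in 0 of 3 in TLR7-/- and in 3 of 3 in IFNAR-/-. The shares of the 84 pathway genes were 38.1%, 4.76% and 53.6%. *Eif2ak2*, encoding the kinase PKR, had log2 differences of 3.83, -0.23 and 4.70 in wild type, TLR7-/- and IFNAR-/-. *Irf1*, an interferon-response factor, had 1.93, 0.27 and 1.40. *Cxcl10*, a chemokine, had -0.27, 0.07 and 5.50. Its delta-Ct in the same order was 2.00, 1.60 and 5.53 in Mock, and 2.27, 1.53 and 0.03 in R848. All 4 adaptors were also 2-fold higher in IFNAR-/- against its own Mock column, where their Ct values ran from 32.10 to 33.40. With TLR7-/- Mock as control, *Myd88* in IFNAR-/- had 0.17. Any part of the interferon-response letters in the *Myd88* promoter, or of interferon, in these differences was not tested.

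The genes whose profile over the 6 columns was closest to each adaptor were found by the root mean square difference of delta-Ct, after each gene's own mean was subtracted. The 69 genes below the limit in every column were compared, so each adaptor was set against 68. *Tirap* was closest to *Nfkb1*, encoding an NF-kB subunit (0.14 cycles), then to *Tnfaip3*, an NF-kB inhibitor (0.28), and *Tlr6* (0.32), against a median of 0.95 over all genes compared. *Ticam2* was closest to *Tnfrsf1a*, a TNF receptor (0.13), then to *Tlr9* (0.21) and *Rela*, encoding another NF-kB subunit (0.40), against a median of 0.87. *Myd88* was closest to *Tlr6* (0.35), *Tirap* (0.39) and *Nfkb1* (0.40), against 1.02. *Ticam1* was closest to *Ticam2* (0.46), *Tnfrsf1a* (0.48) and *Nfkb1* (0.53), against 1.18.

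Within the adaptors, the closest pair was *Myd88* with *Tirap* (0.39 cycles), and the furthest was *Myd88* with *Ticam1* (0.83). *Myd88* and *Ticam2* differed by 0.76, *Tirap* and *Ticam1* by 0.54, and *Tirap* and *Ticam2* by 0.46, as did *Ticam1* and *Ticam2*. Members of 1 arm were thus the nearest adaptors to each other, with *Ticam2* as near to *Tirap* as to *Ticam1*. The reference genes cancel in these differences. The adaptors sit in wells D12 (*Myd88*), F05 (*Ticam1*), F06 (*Ticam2*) and F07 (*Tirap*) of the plate, the last of these next to each other.

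**Figure D5:**
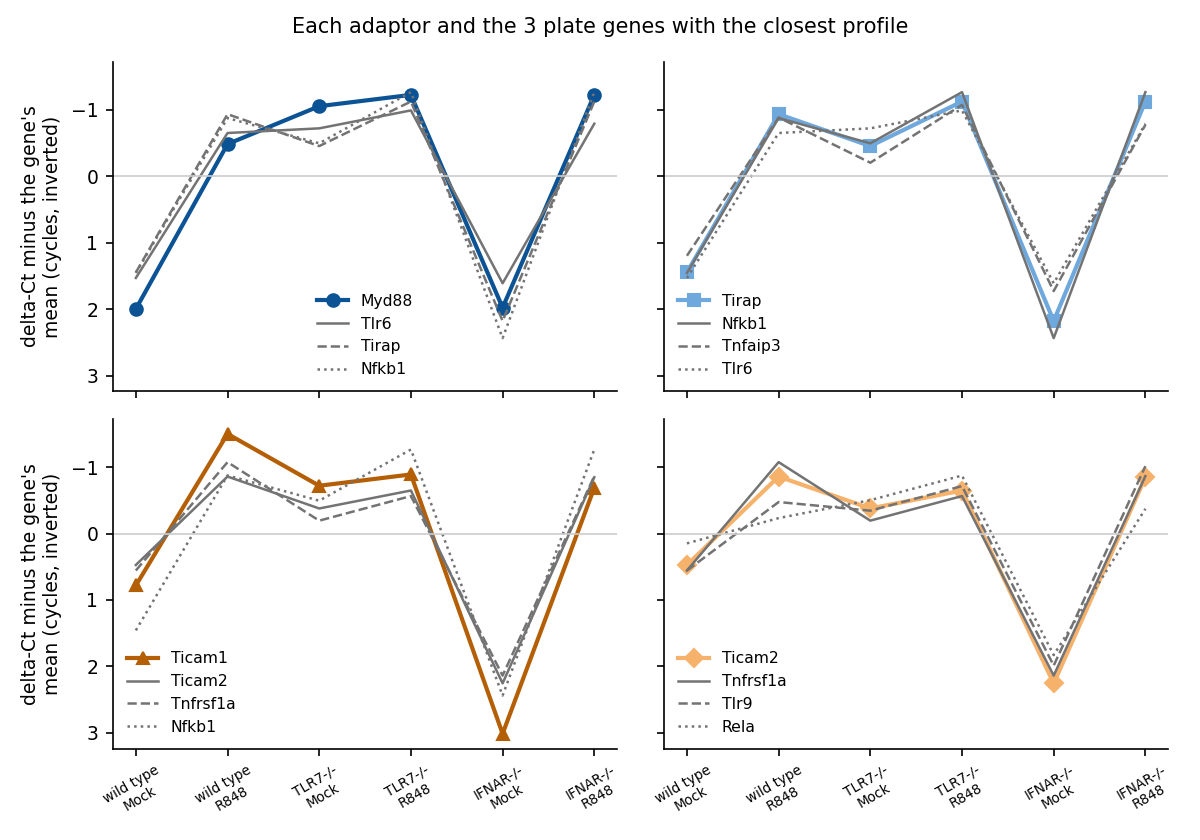
Delta-Ct minus each gene's own mean over the 6 columns (cycles, axis inverted) for each adaptor (coloured) and its 3 closest plate genes (grey), with 1 value per column on the x axis. *Tirap* and *Nfkb1* follow each other to 0.14 cycles and *Ticam2* and *Tnfrsf1a* to 0.13 cycles.

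Markers of cell types that spleen can hold were read on the same plate. In whole tissue, fewer cells of a type and less RNA per cell cannot be told apart. Of 7 myeloid markers, 3 were 2-fold higher with R848 in wild type, 1 in TLR7-/- and 5 in IFNAR-/-, where 1 was lower, against 38.1%, 4.76% and 53.6% of the plate higher. The wild-type count is near the share of the plate. Their summed level relative to the reference genes was 0.182 in Mock and 0.301 in R848 of wild type, 0.308 and 0.319 in TLR7-/-, and 0.145 and 0.403 in IFNAR-/-. It was thus higher in the R848 column than in the Mock column of each strain. Among Mock columns it was highest in TLR7-/-, where the adaptors also had their highest Mock levels. That match was not particular to myeloid markers, since the summed T and NK cell products were also highest there among Mock columns. The summed B cell-associated genes were highest in wild-type Mock. The sum does not show that the log2 differences of the myeloid markers ran both above and below 0 in every strain. *Cd14* was at the limit in TLR7-/- Mock and IFNAR-/- R848.

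Among plate genes of known direction, 32 of 79 were 2-fold higher and 11 lower in wild type. In TLR7-/- 4 of 79 were higher and 3 lower, and in IFNAR-/- 45 of 75 were higher and 2 lower. Of 3 T and NK cell products, 2 were 2-fold lower in wild type, none differed 2-fold in TLR7-/- and 1 was higher in IFNAR-/-. Their summed level was 0.0122 and 0.00531 in Mock and R848 of wild type, 0.0202 and 0.0208 in TLR7-/-, and 0.00637 and 0.00762 in IFNAR-/-, where *Il2* was at the limit in both columns. Of 3 B cell-associated genes, 1 was 2-fold lower in wild type and none of known direction differed 2-fold elsewhere. Their summed level was 0.278 and 0.171 in wild type, 0.234 and 0.193 in TLR7-/-, and 0.123 and 0.192 in IFNAR-/-, with *Btk* at the limit in all 4 columns of the deficient strains. The part of cell composition in the adaptors' levels was not tested.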

How the data were processed

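RNA pooled from 3 spleens per sample was read on a quantitative PCR plate, and the submitters replaced missing readings and any Ct over 35 by 35, per the labels. Per the file headers, the deposited levels are delta-Ct values on a log2 scale, against the mean Ct of the reference genes. The authors' deposited fold difference is the ratio of R848 over Mock, and it was matched from the delta-Ct values for 89 of 89 genes in each table, within 0.02 log2 units or 0.006 of a fold. Strain was taken from the table's name and treatment from its column names. Another 6 columns of per-sample values, which restate delta-Ct as a linear level, were not used.

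Log2 differences, counts at 2-fold and comparisons between strains were computed with Python 3.11.15 and pandas 2.3.3. Only the log2 differences, for genes below the detection limit, were checked on simulated plates, which carried no noise. With 1 value per group no difference was tested; separate wild-type experiments were not analysed here. A fold with 1 column at the detection limit counts as a bound where its direction is known. Otherwise the gene was left out of list counts and medians. The percentages of the plate 2-fold higher keep all 84 pathway genes. Named genes are the adaptors, the 3 closest profiles of each, and up to 3 members of each list, picked by their role after their values were seen. The adaptors and gene lists were chosen with earlier results of these data known. Alternatives were other references, another control column, thresholds of 1.5-fold and 3-fold, and leaving out each adaptor from the arm comparison.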

Additional observations from a re-analysis of the deposited data

Results flagged for a closer look

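Some results had opposite signs in different strains, and none of these differences was tested. The arm comparison, *Myd88* and *Tirap* minus *Ticam1* and *Ticam2*, ran from 0.62 in wild type to -0.15 in IFNAR-/-, a span of 0.78. The log2 difference of *Tlr4* spanned 5.01 (4.58 in wild type, -0.43 in TLR7-/-), that of *Tlr7* 2.66 (2.53 and -0.13) and that of *Casp8* 2.46 (1.23 and -1.23) between the same strains. *Casp8* also differed widely in level, with delta-Ct values in Mock and R848 of 6.00 and 4.77 in wild type but 10.60 and 11.83 in TLR7-/-. In IFNAR-/- it stood at the limit in both columns. *Eif2ak2* spanned 4.93 (4.70 in IFNAR-/-, -0.23 in TLR7-/-) and *Tbk1* 0.93 (0.80 and -0.13) between those strains. *Cxcl10* spanned 5.77 (5.50 in IFNAR-/-, -0.27 in wild type). Against *Hsp90ab1* alone, log2 differences shifted by 0.13 in TLR7-/- and by 0.52 in wild type. The negative values of *Tlr7* and *Tbk1* in TLR7-/- and of *Cxcl10* in wild type are no larger in size than these shifts. Their signs therefore depend on the reference.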

How the results depend on the processing

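Counts of adaptors 2-fold higher kept within 1.5 times of 4 in wild type and in IFNAR-/-, and at 0 in TLR7-/-, under each other reference. Plate genes 2-fold higher under those references ran from 15 to 39 of 84 in wild type. They ran from 3 to 7 in TLR7-/- and from 14 to 57 in IFNAR-/-. With TLR7-/- Mock as control both counts of 4 became 0. At 1.5-fold the TLR7-/- count was 1 (*Tirap*). After centring on the median pathway gene, 2 adaptors differed by 1 log2 unit between wild type and TLR7-/-, in place of 4, and 0 between IFNAR-/- and wild type, in place of 2. The latter count was 4 at 1.5-fold and 1 at 3-fold. No share of the plate is given for the counts at these thresholds or for the strain contrasts after centring. Over the 5 other references, log2 differences in wild type ran from 1.25 to 3.00 for *Myd88* and from 0.10 to 1.85 for *Ticam2*, and in IFNAR-/- from 1.65 to 4.10 for *Ticam1*. *Myd88* in wild type (-0.57) and *Ticam1* in IFNAR-/- (-0.03) turned below 0 with TLR7-/- Mock as control, and *Myd88* and *Ticam1* in TLR7-/- (-0.05 each) after centring.

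Without *Myd88*, *Tirap*, *Ticam1* or *Ticam2* in turn, the arm comparison was 0.57, 0.68, 1.10 and 0.15 in wild type, 0.45, -0.05, 0.15 and 0.25 in TLR7-/-, and -0.10, -0.20, 0.15 and -0.45 in IFNAR-/-. With TLR7-/- Mock as control it was -0.68 in wild type and 0.20 in IFNAR-/-. The cause of these changes was not tested. No paired analysis was possible because the tables give the wild-type experiments only as their mean. For the same reason the alternative of each experiment on its own was not run.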
